A study of Rattus norvegicus and Mus musculus and Macaca mulatta with 84 samples.

Results

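Streptozotocin diabetes in the mouse was profiled at the level of liver microRNAs, and the libraries described here are those 5 livers and their 5 controls, 10 of the 84 samples of the series. They were chosen by their labels, with no measured value used. The series compares several models of diabetes at the level of small RNA and messenger RNA, and includes experiments with locked nucleic acids against miR-29. The 5 STZ libraries came from C57BL/6J mice labelled as a diabetic model induced with streptozotocin. The 5 ob/ob libraries came from mice of the obese ob/ob genotype. The labels describe it as a leptin receptor mutation, although ob/ob is a mutation of the leptin gene itself. The 5 control libraries came from C57BL/6J mice named as controls for both models. All groups were liver, sequenced as small RNA. No dose, time after injection, age, sex or blood glucose is given, so the degree of diabetes of each animal is not known. The labels number the libraries but do not say that each came from its own animal, so p-values measure the spread between these libraries, part of which may be technical.

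Streptozotocin is taken up by the insulin-producing beta cells of the pancreas and kills them, which leaves an animal short of insulin, whereas the ob/ob mouse is obese, insulin resistant and has high insulin. A microRNA (miRNA) is a short RNA cut from a hairpin precursor, and it lowers the output of messenger RNAs that pair with its seed, the bases near its 5′ end. The arm of the hairpin it comes from is written 5p or 3p. In the liver miR-122 dominates many published profiles and is nearly specific to hepatocytes, miR-34a is induced by the tumour suppressor p53, and miR-802 is known from mouse studies to rise in obese liver and to impair glucose handling.

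The results below turn on a small set of miRNAs whose sequences show which of them are relatives. Sequences are those of the rat miRNAs of the same name, from RefSeq (build GRCr8), because the table of sequences used here holds rat and not mouse entries; 209 of 259 tested canonical miRNAs had a rat namesake. They run 5′ to 3′ with the seed, bases 2 to 8, in capitals. The first pair shares a seed and both members were called higher in STZ liver. The next pair shares a seed and only miR-215-5p was called, and miR-375 is the islet miRNA.
miR-34a-5p: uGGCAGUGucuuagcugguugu
miR-34c-5p: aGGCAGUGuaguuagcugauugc
miR-215-5p: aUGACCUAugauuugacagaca
miR-192-5p: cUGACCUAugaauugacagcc
miR-375-3p: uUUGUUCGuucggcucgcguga

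A further pair of seed groups each held 1 member that was called higher in STZ liver. These are miR-92b-3p beside the abundant miR-92a-3p, and miR-29b-3p beside miR-29a-3p and miR-29c-3p. They are shown because their members differ by few bases outside the seed and only 1 member of each was called. Whether the members of a group differed from one another was not tested.
miR-92b-3p: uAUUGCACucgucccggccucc
miR-92a-3p: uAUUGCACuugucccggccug
miR-29b-3p: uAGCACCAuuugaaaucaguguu
miR-29a-3p: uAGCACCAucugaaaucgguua
miR-29c-3p: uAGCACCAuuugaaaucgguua

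Counted from the 5′ end without gaps, miR-34a-5p and miR-34c-5p have the same base at 11 of 22 positions. The count is 18 of 21 for miR-192-5p and miR-215-5p, and 19 of 21 for miR-92b-3p and miR-92a-3p. It is 18 of 22 for miR-29a-3p and miR-29b-3p, and 21 of 22 for miR-29a-3p and miR-29c-3p.

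The deposited values are reads per 1000000 mapped to miRNAs (RPM), and each of the 15 libraries sums to 1000000. The table lists 1158 forms. A form is a canonical miRNA or a version whose 5′ end lies a stated number of bases before (−) or after (+) the annotated start. Depth cannot be recovered from the values. The lowest value above 0 ranged from 1.33 to 7.29 RPM, and between 506 forms (control 5) and 960 forms (STZ 3) were above 0. STZ 1 to 3 and control 1 to 3 were run in lane 7 of the sequencer, and STZ 4 and 5 and control 4 and 5 in lane 8. Of the ob/ob libraries, 1 and 2 were run in lane 7 and 3 to 5 in lane 8, so STZ and ob/ob are not matched by lane. miR-22-3p, which is not on the list of hepatocyte-enriched miRNAs used here, took 20.9% ± 0.866 of reads in STZ and 19.7% ± 1.91 in control libraries. Of the miRNAs on that list, miR-192-5p took 9.07% ± 0.927 and 10.6% ± 1.65 (SD, n = 5 each). miR-122-5p with its offset forms took 3.77% ± 0.669 and 4.14% ± 1.13 (SD, n = 5 each), so it did not dominate these libraries.

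STZ 3 stood apart from the other libraries. The 6 listed muscle miRNAs summed to 18787 RPM in STZ 3, against 36.3 to 114 RPM in the other STZ libraries and 0 to 74.1 RPM in the control libraries. Of these, miR-1a-3p, miR-133b-3p, miR-206-3p, miR-208b-3p and miR-499-5p had 216, 172, 44.4, 65.8 and 9.4 RPM in STZ 3 and 0 in each of the 9 other STZ and control libraries. All 26 listed miRNAs of the Dlk1-Dio3 imprinted cluster, which is active in muscle and in fetal tissue, were also highest in STZ 3. There they summed to 4297 RPM against 517 to 1035 RPM in the other 9. STZ 3 also had the most forms above 0, and its lowest value above 0 was 2.01 RPM, against 7.29 RPM in control 5. Members near that level, such as miR-543-3p at 2.4 RPM in STZ 3, could have gone unlisted in such a library. The most abundant member, miR-127-3p, had 2756 RPM in STZ 3 against 370 to 689 RPM in the other 9. The correlation of STZ 3 with its own group over the tested forms (log2 scale, Pearson) had a median of 0.917, while those of the other STZ libraries had medians of 0.94 to 0.953. The part of these miRNAs in the results was not tested.

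**Figure D1:**
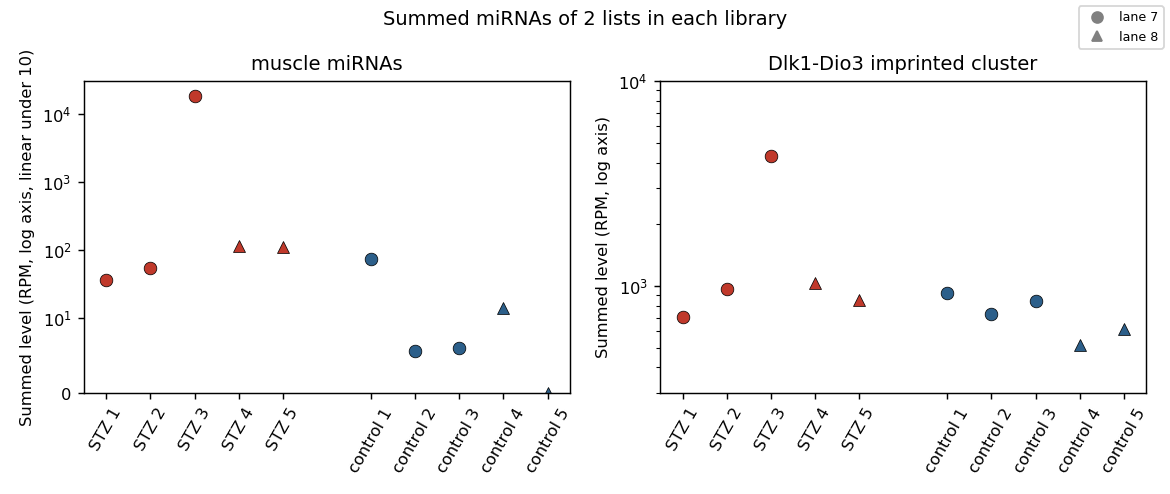
Summed level (RPM, log axis; the left axis is linear under 10) of the 6 muscle miRNAs (left) and the 26 Dlk1-Dio3 miRNAs (right) in each STZ and control library, 1 point per library, circles lane 7 and triangles lane 8. STZ 3 reaches 18787 RPM on the left and 4297 RPM on the right, above the other 9 libraries in both.

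STZ and control livers were compared over 487 forms whose mean over the 15 libraries reached 10 RPM, on the log2(RPM + 1) scale with limma, and a form was called at a Benjamini-Hochberg adjusted p under 0.05. The pseudocount understates changes of low forms. STZ liver showed higher miR-34a, miR-34c and miR-215, higher miR-802 and higher miR-375, together with lower miR-1948 and miR-455-3p, while the most abundant liver miRNAs were not called. In all, 43 forms (8.83%) were called, of which 36 (7.39%) were higher and 7 (1.44%) lower in STZ; 148 forms had an unadjusted p under 0.05. The calls fell on 31 miRNAs, 26 higher and 5 lower, and 20 of the 43 were offset forms. Of the tested forms, 12 averaged under 10 RPM over the 10 STZ and control libraries and passed the filter only through the ob/ob libraries. Among these 12, 2 were called, both higher: canonical miR-582-3p and a form of miR-365-5p starting 1 base early. Both remain in the counts given here. STZ and control libraries did not overlap for 30 forms (6.16%) with STZ above control and 11 (2.26%) with STZ below, and 28 of the 43 called forms were among them.

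Lane and library composition bear on that count. All 43 called forms had the same sign in lane 7 alone and in lane 8 alone, where 72.5% of all tested forms did. The 43 were called from these same libraries, so their agreement in sign is largely set by that choice and is no independent check. With lane in the fit 98 forms were called (75 higher, 23 lower). Lane 7 alone gave 57 calls, with 32 of the 43 among them, and lane 8 alone gave 16, with 10 of the 43 among them. The median log2 difference of all tested forms was 0.22, and 64.3% of forms were above 0. After rescaling by the median of ratios the median was 0.05 and 35 forms were called, 26 higher and 9 lower, with 33 of the 43 among them and all 43 of the same sign. Without STZ 3, 30 of the 43 were called; the other 13 had adjusted p from 0.0642 to 0.0887, and all 43 kept their sign. The 13 include miR-92b-3p, miR-744-5p (adjusted p = 0.0642), miR-455-3p (0.0798), miR-29b-3p, miR-106b-3p and miR-541-5p. Still called without STZ 3 were miR-34c-5p at a log2 difference of 2.58, miR-215-5p at 1.36, miR-802-5p at 2.48, miR-802-3p at 1.97, miR-375-3p at 3.28, miR-1948-3p at -1.60, miR-423-3p at 1.22 and miR-1247-5p at 1.34. The count was 23 without STZ 4, 22, 23 and 24 without control 1, 2 and 3, and 74 without control 5, the library with the fewest forms above 0.

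**Figure D2:**
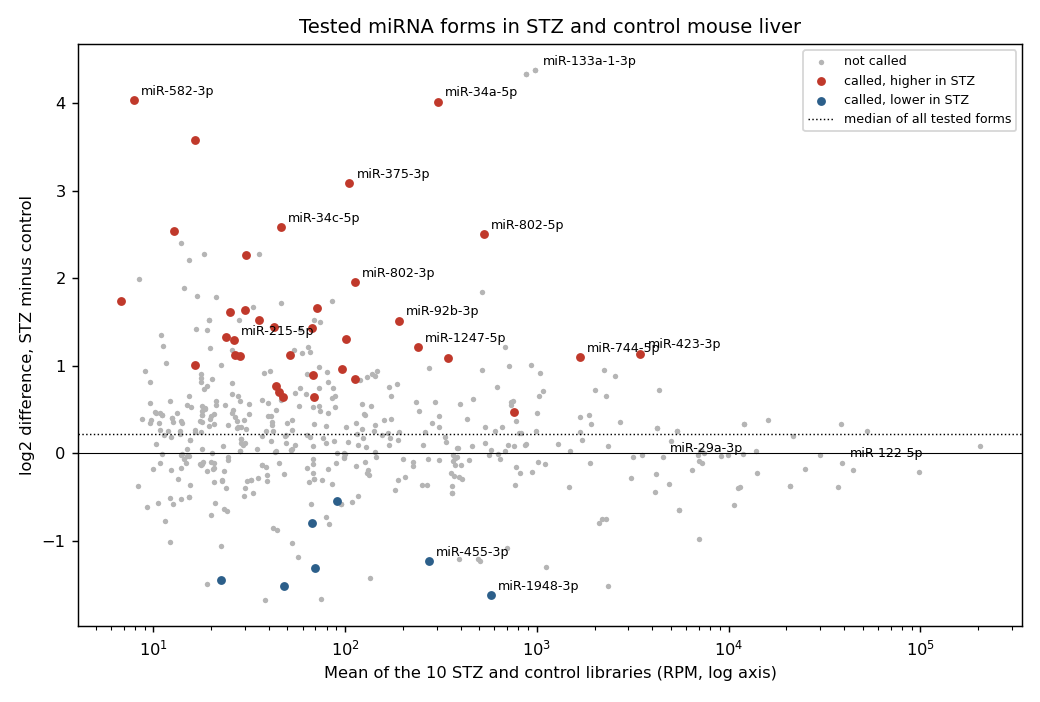
Each point is 1 of the 487 tested forms, by its mean over the 10 STZ and control libraries (RPM, log axis) and its log2 difference, STZ minus control. Red points are the 36 forms called higher and blue points the 7 called lower in STZ, and the dotted line is the median of all forms at 0.22; miR-34a-5p stands at 4.01 and miR-1948-3p at -1.62.

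The miR-34 family showed the clearest difference. miR-34a-5p, a p53 target that restrains the deacetylase Sirt1 and the cell cycle, had 658, 616, 462, 530.1 and 599 RPM in STZ 1 to 5, and 36.6, 29.7, 36.1, 33.5 and 36.1 RPM in control 1 to 5. The ob/ob libraries had 196, 185, 155, 152 and 183.4 RPM, and the 3 groups did not overlap one another. The log2 difference between STZ and control was 4.01 (SE 0.14, limma adjusted p = 6.66e-12), with 4.03 in lane 7 and 3.98 in lane 8, and 4.09 without STZ 3. Between STZ and ob/ob it was 1.71 (SE 0.14, limma adjusted p = 6.54e-07).

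miR-34c-5p, which is made from another locus and shares the miR-34a seed, had 38.9, 51.3, 71.6, 83.5 and 158 RPM in STZ 1 to 5. It had 8.26, 9.95, 17.7, 15.2 and 7.63 RPM in control 1 to 5, all below the lowest STZ library. The ob/ob libraries ranged from 10.3 to 31.1 RPM, also below the lowest STZ value. In log2, STZ exceeded each, by 2.58 against control (SE 0.40, limma adjusted p = 0.00064) and by 1.85 against ob/ob (SE 0.40, limma adjusted p = 0.0133). Among the 209 miRNAs with a rat namesake, these 2 were the only ones with that seed.

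miR-215-5p, a p53-responsive miRNA, had 32.3, 38.7, 31.0, 39.3 and 47.2 RPM in STZ 1 to 5, against 14.3, 13.0, 19.5, 13.6 and 13.5 RPM in control 1 to 5. Every STZ library was above every control library, although control 3 lay above the other controls. The log2 difference was 1.29 against control (SE 0.19, limma adjusted p = 0.000353). Against ob/ob, which averaged 22.1 ± 4.94 RPM, it was 0.75 (SE 0.19, limma adjusted p = 0.0212). Its seed relative miR-192-5p, which is far more abundant in liver, was not called, at the shares given above (log2 difference -0.22, limma adjusted p = 0.203). Of the 5 tested miRNAs on the list of p53-responsive miRNAs, 3 were called, all higher. The other 2, miR-192-5p and miR-194-5p, were below 0 and uncalled (log2 -0.22 and -0.24, limma adjusted p = 0.203 and 0.364). The median log2 difference of the list, 1.29, is the value of miR-215-5p. Over all 259 tested canonical miRNAs the median was 0.12 (-0.06 after rescaling), with 19 (7.34%) called higher and 2 (0.772%) lower.

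**Figure D3:**
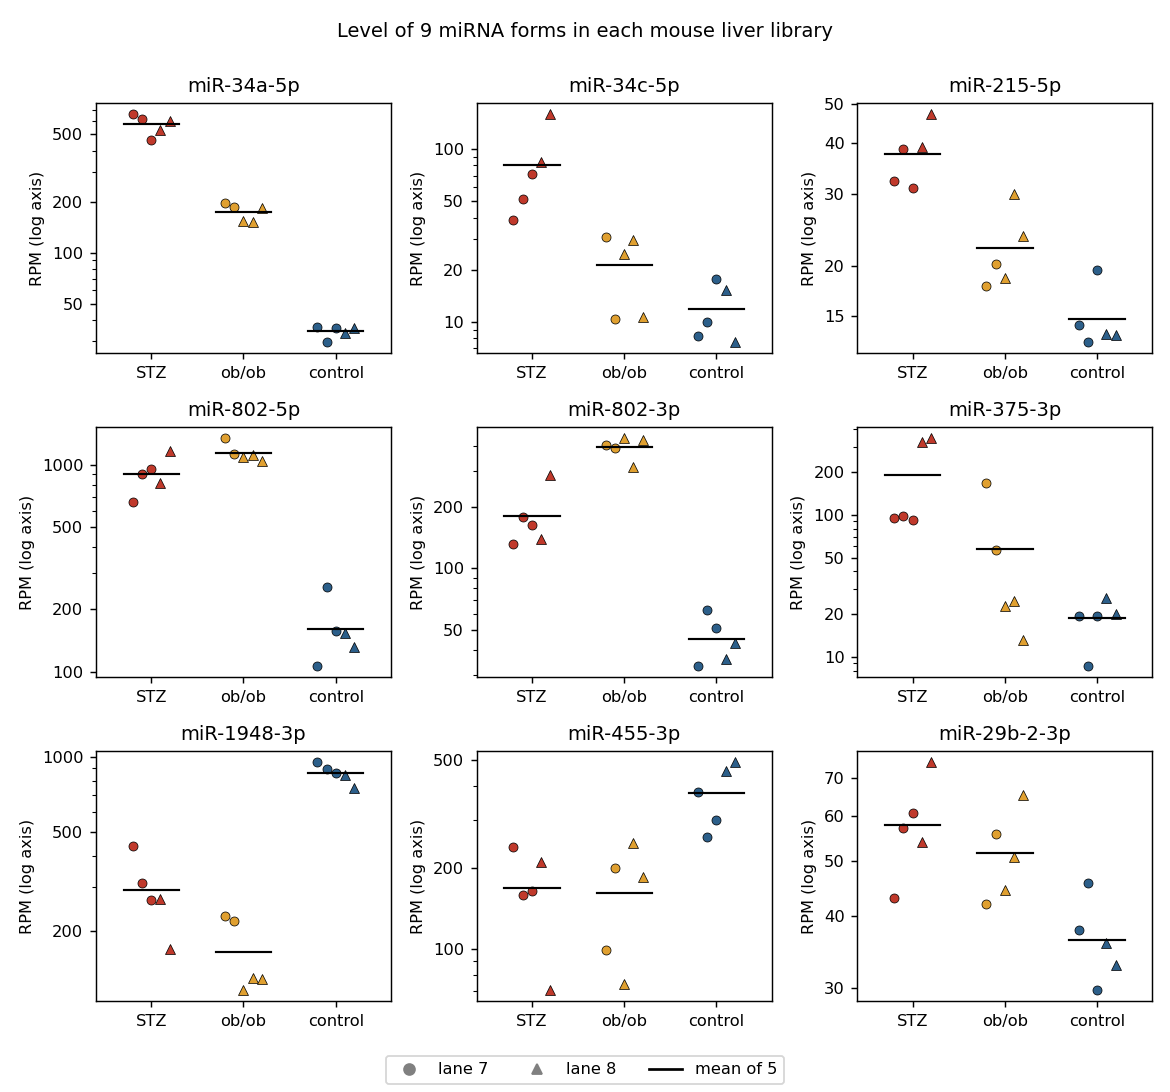
Level (RPM, log axis) of 9 forms in each library of the STZ, ob/ob and control groups, 1 point per library with circles for lane 7 and triangles for lane 8, and a bar at the mean of 5. For miR-34a-5p the STZ libraries lie at 462 to 658 RPM, above ob/ob at 152 to 196 and control at 29.7 to 36.6; for miR-1948-3p the control libraries are above both models.

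miR-802 was higher in STZ liver on both arms. miR-802-5p had 656, 901, 949, 816 and 1157 RPM in STZ 1 to 5. It had 107, 256, 158, 155 and 132 RPM in control 1 to 5, so the lowest STZ library was above the highest control. STZ exceeded control by 2.50 on the log2 scale (SE 0.21, limma adjusted p = 7.74e-07). The form starting 1 base later averaged 51 ± 13.1 RPM in STZ and 9.88 ± 3.37 RPM in control (SD, n = 5 each; log2 2.27). The opposite arm, miR-802-3p, averaged 180.0 ± 62.1 RPM in STZ and 45.1 ± 12 RPM in control (SD, n = 5 each; log2 difference 1.95, SE 0.22, limma adjusted p = 2.56e-05).

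In ob/ob liver miR-802-5p averaged 1138 ± 116 RPM, and the STZ libraries did not differ from it at the threshold (log2 -0.36, SE 0.21, limma adjusted p = 0.282). The other 2 forms were lower in STZ than in ob/ob liver. For miR-802-3p the ob/ob mean was 393 ± 48.1 RPM (log2 difference STZ minus ob/ob -1.17, SE 0.22, limma adjusted p = 0.0063), and for the form 1 base later 88.3 ± 14.7 RPM (-0.80, SE 0.21, limma adjusted p = 0.0285).

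miR-375-3p, an islet-enriched miRNA that in mouse beta cells restrains insulin secretion and is also made by epithelial cells, had 95.3, 98.1, 91.4, 326 and 346 RPM in STZ 1 to 5. Control 1 to 5 had 19.5, 8.65, 19.3, 25.8 and 20.1 RPM, and no control library reached the lowest STZ library. The STZ libraries of lane 8 were more than 3 times those of lane 7, while control libraries had 8.65 to 19.5 RPM in lane 7 and 20.1 and 25.8 RPM in lane 8. The log2 difference was 3.09 (SE 0.60, limma adjusted p = 0.00496), with 2.59 in lane 7 and 3.82 in lane 8, and the lanes' differences did not differ at the threshold (interaction 1.23, limma adjusted p = 0.751). The ob/ob libraries spread from 13.2 to 168 RPM, overlapping both groups, and the log2 difference between STZ and ob/ob was 2.04 (SE 0.60, limma adjusted p = 0.0411). No other islet miRNA on the list passed the filter. Of 5 tested bile duct and epithelial miRNAs, none was called; their median log2 difference was 0.31 (0.13 after rescaling). miR-200b-3p averaged 334 RPM in STZ and 448 RPM in control (log2 -0.27), and miR-200a-3p 125 RPM in STZ and 129 RPM in control (log2 -0.10). The other 3 were above 0: miR-200c-3p averaged 25.8 RPM in STZ and 8.19 RPM in control (log2 1.80, limma adjusted p = 0.0771), miR-141-3p 54.7 and 26.3 RPM (log2 0.94, limma adjusted p = 0.134), and miR-429-3p 89.1 and 70.2 RPM (log2 0.31, limma adjusted p = 0.509). The part of epithelial cells in the miR-375-3p difference was not tested.

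miR-582-3p was listed above 0 in all 10 libraries of the 2 models and at 0 in all 5 controls; it was singled out after its values were seen. STZ 1 to 5 had 13.7, 15.7, 11.2, 14.3 and 24.4 RPM, ob/ob libraries 49.1 to 96.8 RPM, and no fold against control is given. The form starting 1 base later had 27.8, 29.4, 21.6, 20.2 and 54.8 RPM in STZ, against 2.96, 2.71, 5.47, 0 and 0 RPM in control. The canonical form averaged 7.93 RPM over the 10 STZ and control libraries and passed the filter of 10 RPM only through the ob/ob libraries, so its values are given with no p. The form 1 base later averaged 16.5 RPM over those 10 libraries, but 30.8 RPM in STZ and only 2.23 RPM in control. It thus passed the filter through the groups where it was high, and its call against control is also given with no p. That form was lower in STZ than in ob/ob liver (log2 -2.08, SE 0.49, limma adjusted p = 0.0169).

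Among lower forms, miR-1948-3p, a rodent miRNA whose function in liver is little described, had 439, 312, 266, 270.2 and 169.5 RPM in STZ 1 to 5, against 949.7, 893, 861, 844 and 746 RPM in control 1 to 5. The groups were far apart, and the log2 difference was -1.62 (SE 0.25, limma adjusted p = 0.000566). The forms of the same arm starting 1 base earlier and 1 base later, and a form of the opposite arm, fell as well, by 1.44, 1.31 and 1.51 on the log2 scale. The canonical miR-1948-5p averaged 9.61 RPM in STZ and 28.5 RPM in control and was not called (log2 -1.49, limma adjusted p = 0.0729), although its groups did not overlap. In ob/ob liver miR-1948-3p averaged 165 ± 55.3 RPM, and STZ was higher than ob/ob by a log2 difference of 0.81 (SE 0.25, limma adjusted p = 0.0454).

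miR-455-3p, listed among hepatocyte-enriched miRNAs, had 238, 158, 164, 209 and 70.5 RPM in STZ 1 to 5 and 381, 260.1, 301, 457 and 491 RPM in control 1 to 5. All STZ libraries were below all control libraries, by a log2 difference of -1.23 (SE 0.36, limma adjusted p = 0.0475). This is close to the threshold, and the call was lost in 9 of the 10 fits that leave out 1 library. Its opposite arm averaged 59.7 RPM in STZ and 98.8 RPM in control (log2 -0.72, limma adjusted p = 0.143). The remaining lower calls were offset forms starting 1 base early: miR-10a-5p averaged 73.8 ± 14.7 RPM in STZ and 107 ± 10.9 RPM in control, and miR-146a-5p, an inflammatory-response miRNA, 48.7 ± 12.3 RPM in STZ and 85.9 ± 26.1 RPM in control (SD, n = 5 each).

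Hepatocyte-enriched miRNAs other than miR-455-3p were not called. The list had 10 tested members, 0 higher and 1 lower, with a median log2 difference of -0.23 (-0.41 after rescaling), and 1 of 10 was above 0, against 157 of all 259 tested canonical miRNAs. The 2 sets are not matched for level. Over all tested forms the median log2 difference was 0.30 at means of 10 to 100 RPM, 0.18 at 100 to 1000 RPM and -0.01 above 1000 RPM. The summed level of the list was 183285 to 237599 RPM in STZ and 225567 to 284052 RPM in control libraries. The ranges overlapped, with the lowest sum in STZ 3. miR-122-5p with its offset forms took shares that did not differ beyond the spread (log2 difference -0.10, two-sided exact permutation p = 0.706; the smallest p for 5 against 5 is 0.00794). Canonical miR-122-5p itself averaged 37157 ± 6299 RPM in STZ and 41071 ± 11195 RPM in control (SD, n = 5 each; log2 -0.11, limma adjusted p = 0.762). In bulk tissue, fewer cells of a type and less RNA per cell cannot be told apart.

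The miR-29 family, which targets collagen messenger RNAs, is the family the series perturbs in its other experiments. miR-29b-3p, measured at its 2 near-identical loci, had 43 to 74.7 RPM in STZ and 29.7 to 45.8 RPM in control at the second locus, with 1 STZ library inside the control range. The fit gave a log2 difference of 0.65 (SE 0.18, limma adjusted p = 0.0306) at that locus and 0.70 (SE 0.18, limma adjusted p = 0.0277) at the first, and each call was lost in 7 of 10 single omissions and after rescaling. The values of the 2 loci were close but not equal, such as 27.1 RPM at the first and 29.7 RPM at the second in control 3. They are counted as 1 miRNA.

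The 2 more abundant relatives of miR-29b were not called. miR-29a-3p averaged 4482 ± 566 RPM in STZ and 4594 ± 404 RPM in control (log2 -0.04, limma adjusted p = 0.889), and miR-29c-3p 656 ± 78.3 and 549 ± 66.4 RPM (log2 0.26, limma adjusted p = 0.351; SD, n = 5 each). Summed over the family, the libraries held 4889 to 6099 RPM in STZ and 5035 to 6026 RPM in control, ranges that overlap almost fully.

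In a further set of called miRNAs the control libraries of lane 8 lay above those of lane 7. These were miR-423-3p, miR-744-5p, miR-1249-3p, miR-1981-5p and miR-1247-5p. miR-423-3p had 5487, 4224, 3676, 6752 and 3409 RPM in STZ 1 to 5, against 1524, 1345, 1849.8, 2993 and 3322 RPM in control 1 to 5. The groups just failed to overlap, control 5 being the nearest. The log2 difference was 1.14 (SE 0.28, limma adjusted p = 0.022), 1.5 in lane 7 and 0.61 in lane 8, and both its offset forms were called in the same direction. miR-744-5p had 2609, 2056, 1980.7, 3259 and 1422 RPM in STZ and 778, 635, 966, 1339.8 and 1706 RPM in control, where control 5 was above STZ 5 (log2 1.10, SE 0.30, limma adjusted p = 0.0306). By lane STZ exceeded control by 1.49 in lane 7 and by 0.51 in lane 8. The call was lost in 7 of 10 single omissions, with adjusted p up to 0.0918, and that of miR-423-3p in 4, of miR-1249-3p in 3, of miR-92b-3p in 5, of miR-106b-3p in 4 and of miR-541-5p in 8.

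miR-1249-3p averaged 144 ± 38.2 RPM in STZ and 59.5 ± 23.7 RPM in control (SD, n = 5 each; log2 1.31, limma adjusted p = 0.0184), with controls of 37.7 to 47.1 RPM in lane 7 and of 82.1 and 88.1 RPM in lane 8. miR-1981-5p averaged 70.7 ± 11.8 RPM in STZ and 31.9 ± 5.98 RPM in control (SD, n = 5 each, log2 1.13, limma adjusted p = 0.00064) and was called in every single omission. Its difference was 1.29 in lane 7 alone and 0.88 in lane 8 alone, where it was not called (limma adjusted p = 0.146). miR-1247-5p had 500.3, 348, 228, 339 and 267 RPM in STZ, against 132, 85.0, 154, 163 and 185 RPM in control. STZ 3 held its lowest STZ value, and the groups did not overlap. The log2 difference was 1.21 (SE 0.26, limma adjusted p = 0.0103).

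miR-92b-3p, encoded apart from the miR-17/92 cluster, had 344, 249, 245, 310.2 and 214.98 RPM in STZ, against 80.2, 32.6, 169, 113 and 141 RPM in control. The groups did not overlap (log2 1.51, SE 0.40, limma adjusted p = 0.028), and without STZ 3 the adjusted p was 0.0642 at a log2 difference of 1.55. Its seed relatives miR-92a-3p and miR-25-3p were not called, at log2 differences of 0.25 and 0.03, and none of the 9 tested members of the list of miR-17/92 and paralogous clusters was called. The list holds miR-106b-5p (log2 0.01) and not its opposite arm, miR-106b-3p, which was called higher, at 88.5 ± 13.3 RPM in STZ and 48.3 ± 12.9 RPM in control (SD, n = 5 each; log2 0.89, SE 0.22, limma adjusted p = 0.0236). miR-541-5p, of the Dlk1-Dio3 cluster, had 100.1, 108, 262, 153 and 114 RPM in STZ and 60.6 to 103 RPM in control (log2 0.85, SE 0.25, limma adjusted p = 0.0475). Its highest value was in STZ 3, and without that library the adjusted p was 0.0887.

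miR-5105 and miR-5115 were each listed at many starts. miR-5105 had 17 forms, at each offset from -8 to 8, and all 17 had a log2 difference above 0, from 0.30 to 1.66; 5 were called. The form at 8 was the most abundant, with 704 RPM in STZ and 615 RPM in control, and had the smallest difference of the 17 (log2 0.30, limma adjusted p = 0.493). The form at -8 had 90.1, 58.6, 75.6, 178 and 148 RPM in STZ, against 25.8, 28.8, 26.9, 34.1 and 43.7 RPM in control (log2 1.66, SE 0.39, limma adjusted p = 0.0165). Summed over forms, miR-5105 ranged from 1106 to 2481 RPM in STZ and from 690 to 2071 RPM in control, so the sums overlap. miR-5115 had 15 forms, all above 0 in log2 difference, with 1 called, and sums of 11875 to 24042 RPM in STZ and 6902 to 23809 RPM in control. Forms listed under 1 miRNA name are not separate observations. Whether reads at so many starts come from a miRNA hairpin was not tested. Offset forms of all miRNAs together took 9.05% ± 0.404 of reads in STZ and 8.50% ± 0.712 in control libraries (SD, n = 5 each; two-sided exact permutation p = 0.198).

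**Figure D4:**
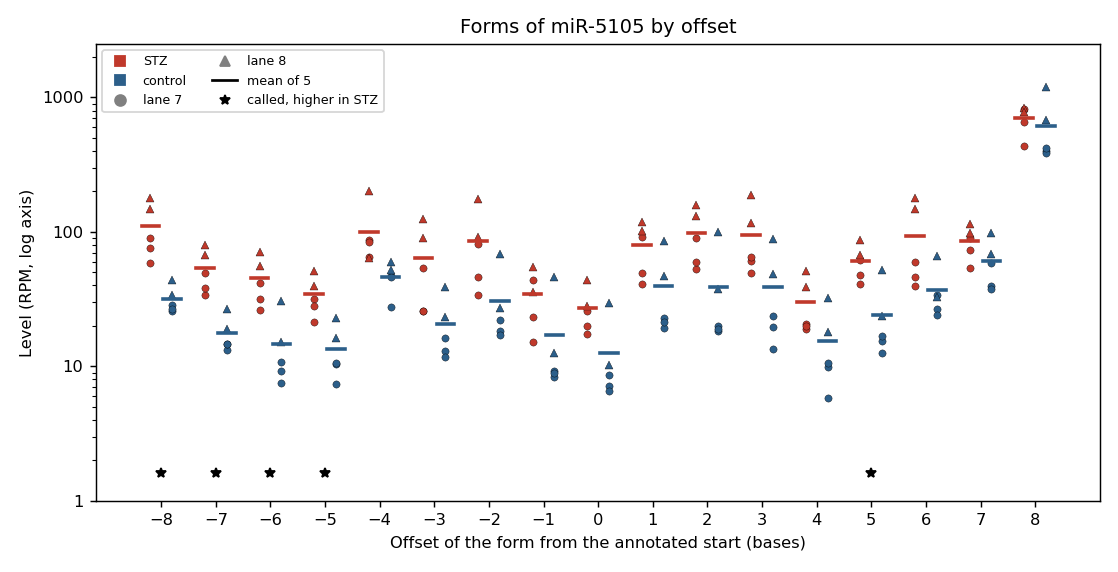
Level (RPM, log axis) of each miR-5105 form in the STZ and control libraries by the offset of its start from the annotated one in bases; points are libraries (circles lane 7, triangles lane 8), bars are means of 5 and stars mark the 5 called forms. The called forms are at -8, -7, -6, -5 and 5, and the form at -8 lies at 58.6 to 178 RPM in STZ and 25.8 to 43.7 RPM in control.

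Other called forms, named after their values were seen, were smaller in size or level. miR-210-5p averaged 37.0 ± 10.6 RPM in STZ and 13.0 ± 8.69 RPM in control (SD, n = 5 each; log2 1.61, limma adjusted p = 0.0234), while miR-210-3p, the arm induced by hypoxia, had 32.5 to 77.0 RPM in STZ and 29.7 to 44.4 RPM in control and was not called (log2 0.49, limma adjusted p = 0.302). miR-21-5p, abundant in injured liver, was not called as the canonical form, at 4.36% ± 1.29 of reads in STZ and 3.38% ± 0.509 in control (SD, n = 5 each; log2 0.34, limma adjusted p = 0.187). Its form starting 1 base early was called, with 95.3, 103, 105, 115 and 225 RPM in STZ and 50.4, 82.7, 71.1, 68.8 and 45.8 RPM in control (log2 0.96, SE 0.24, limma adjusted p = 0.0236), and lost its call after rescaling (limma adjusted p = 0.0658). miR-421-3p averaged 84.5 ± 13.2 RPM in STZ and 53.7 ± 6.90 RPM in control (SD, n = 5 each; log2 0.64, limma adjusted p = 0.0146); it was called in every single omission but not after rescaling (log2 0.46, limma adjusted p = 0.0704).

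Lists of other cell types gave no calls among canonical members. Of 9 tested stellate cell and fibroblast miRNAs none was called, with a median log2 difference of -0.05 (-0.23 after rescaling, -0.31 without STZ 3), and miR-143-3p, the most abundant, had 14286 to 35495 RPM in STZ, where STZ 3 was highest, and 16631 to 23258 RPM in control. Of 11 blood and immune cell miRNAs none was called, with a median of 0.09 (-0.09 after rescaling), and miR-486-5p averaged 13582 ± 6264 RPM in STZ and 10585 ± 5512 RPM in control (SD, n = 5 each). Both endothelial arms of miR-126 were uncalled, at -0.38 and -0.04. miR-133a-3p, the muscle miRNA, had 19.3, 28.2, 9609.7, 55.8 and 56.5 RPM at its first locus in STZ 1 to 5, against 37.5, 3.27, 3.00, 6.45 and 0 RPM in control; its log2 difference of 4.37 was not called (limma adjusted p = 0.0771) and was 2.77 without STZ 3 (limma adjusted p = 0.0997). The pancreatic acinar miRNAs had 1 tested member, miR-148a-3p, which liver also expresses, at a log2 difference of -0.38 (limma adjusted p = 0.156). The let-7 family had 9 tested members, none called, and a median of 0.04, which was -0.15 after rescaling. Of the liver metabolic miRNAs, 28 were tested and 3 called, all higher, namely miR-34a-5p and both arms of miR-802, with a median of 0.22 (0.05 after rescaling). miR-182-5p and miR-183-5p, of 1 cluster, were below 0 and uncalled, with miR-182-5p at 689.9 ± 276 RPM in STZ and 852 ± 217 RPM in control (SD, n = 5 each).

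**Figure D5:**
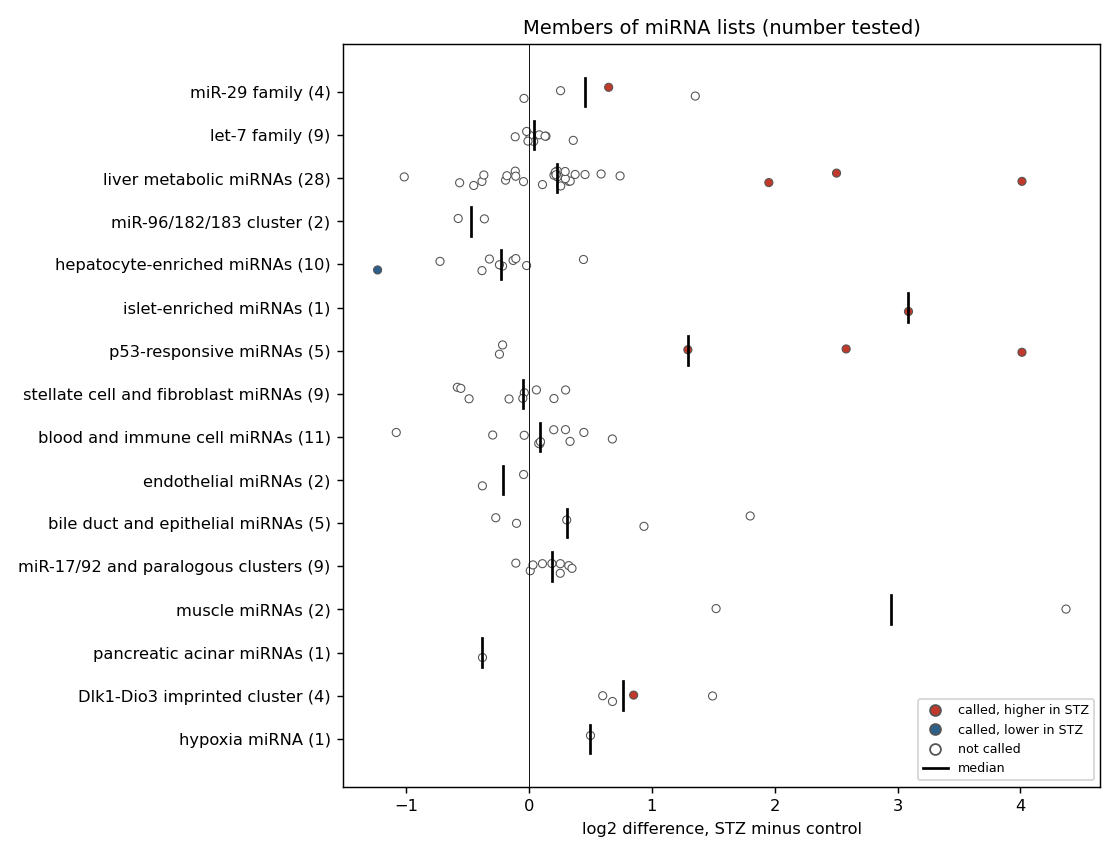
Log2 difference, STZ minus control, of each tested canonical member of 16 miRNA lists (1 point per miRNA, number tested in brackets; filled when called, black tick at the median). The p53-responsive list has its 3 called members at 1.29, 2.58 and 4.01 and its other 2 at -0.22 and -0.24. The hepatocyte-enriched list has 1 of 10 members above 0.

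STZ and ob/ob livers were set against each other directly, a comparison that uses no control library in its means. Here 65 forms (13.3%) were called, 32 (6.57%) higher and 33 (6.78%) lower in STZ. After rescaling by the median of ratios 55 were called, 16 higher and 39 lower. These 2 groups are not matched by lane. With lane in the fit 75 were called, 41 higher and 34 lower, with 63 of the 65 among them. Of the 43 forms called against control, 13 were also called between the models. In 7 of these STZ was higher than both control and ob/ob: miR-34a-5p, miR-34c-5p, miR-215-5p, miR-375-3p, miR-1247-5p, miR-92b-3p and miR-541-5p. The ob/ob mean did not lie between the other 2 groups in all 7. It was below the control mean for miR-541-5p (60.7 against 77.2 RPM) and for miR-92b-3p (75.4 against 107 RPM). For miR-1247-5p it was near the control mean (154 against 144 RPM). For miR-92b-3p, ob/ob liver averaged 75.4 ± 35 RPM against 273 ± 52.8 RPM in STZ liver (SD, n = 5 each; log2 STZ minus ob/ob 1.95, SE 0.40, limma adjusted p = 0.0106). In the other 6, forms of miR-802, miR-582-3p and miR-1948-3p, ob/ob lay further from control than STZ did. Canonical miR-582-3p is among the 6 and passed the filter only through its ob/ob libraries, so its place there is no test. The count between the models fell to 34, 34 and 37 without STZ 1, 2 and 3, and to 37, 19, 42 and 22 without ob/ob 2, 3, 4 and 5.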

How the data were processed

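Per the labels' protocols, mouse liver small RNA libraries were made with the TriLink CleanTag kit. The authors deposited 1 table of reads per 1000000 mapped to miRNAs (RPM). The submitters' processing notes name STAR, Salmon and DESeq2 and builds mm9, mm10, rn6 and hg19, with no role for each, and the miRNA counter is not given in the sources used here. RPM holds no depth: at most 70.5% of a library's low values were whole multiples of 1 read within 0.1 read, so no count test was run and intervals that need depth are not given.

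Forms whose mean over 15 libraries reached 10 RPM were tested as log2(RPM + 1) with limma 3.58.1 (R 4.3.3), with a variance trend, 3 group means and Benjamini-Hochberg adjustment over 487 forms, called under 0.05. The fit was tested on simulated data. Shares were compared by two-sided exact permutation. Named miRNAs were the 10 largest called rises and falls of canonical forms averaging 50 RPM or more, up to 3 called members of each list or its 2 highest, and fixed miRNAs. Members and lists were chosen with earlier results of these data known. Scaling, pseudocount, filter, lane, replicate block, loci and omission of each library were varied, and so was omission of STZ 3 with control 5, added after seeing the data.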

Additional observations from a re-analysis of the deposited data

Results flagged for a closer look

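Of 78 groups of 5 libraries checked, 7 held a library whose gap to its nearest neighbour was more than 0.71 of the group's range, and chance gives about 1 in 20 groups. In STZ 3, miR-1a-3p (second locus) had 194.92 RPM against 0 in the other STZ libraries, and miR-133a-3p (first locus) had 9609.7 RPM against 19.3 to 56.5 RPM. In control 1, miR-133a-3p had 37.51 RPM, against 0 to 6.45 RPM in the other controls, and miR-486-5p, a red cell miRNA, had 20146 RPM against 6772 to 10398 RPM. In STZ 4, miR-25-3p had 1210.1 RPM against 1535 to 1615 RPM in the other STZ libraries. In STZ 1, miR-29c-3p had 517.43 RPM against 679 to 704 RPM. In control 3, miR-215-5p had 19.54 RPM against 13.0 to 14.3 RPM in the other controls.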

How the results depend on the processing

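Of the checks on named forms that were called, 322 kept direction and call, 72 kept direction and lost the call, and 0 reversed. Among named forms that were not called, 469 kept direction and side of the threshold, and 2 gained a call: miR-133a-3p with lane in the fit (limma adjusted p = 0.0469) and miR-148a-3p in lane 7 alone (limma adjusted p = 0.0426). Small differences of uncalled forms changed sign, with log2 values of in lane 8 alone let-7f-2-5p 0.13, let-7c-2-5p -0.22, miR-182-5p 0.42, miR-183-5p 0.14, miR-152-3p -0.0053, miR-486-5p -0.032, miR-150-5p -0.29, miR-126-3p 0.11, miR-200b-3p 0.50, miR-200a-3p 0.92, miR-92a-1-3p -0.12, miR-25-3p -0.049; after rescaling let-7c-2-5p -0.18, miR-152-3p -0.12, miR-150-5p -0.095, miR-25-3p -0.15; with loci averaged let-7c-2-5p -0.0037; with offset forms summed let-7c-2-5p -1.93e-05; without STZ 3 and control 5 miR-143-3p -0.0197, miR-152-3p -0.076, miR-150-5p -0.10, miR-25-3p -0.024, miR-29a-3p 0.0084, miR-122-5p 0.021; in lane 7 alone miR-29a-3p 0.054. Over omissions of 1 library those that changed sign ran from let-7f-2-5p -0.084 to 0.055, let-7c-2-5p -0.16 to 0.095, miR-152-3p -0.024 to 0.18, miR-150-5p -0.20 to 0.33, miR-126-3p -0.16 to 0.051, miR-200a-3p -0.34 to 0.10, miR-25-3p -0.0074 to 0.11, miR-29a-3p -0.076 to 0.0405. The cause of these changes was not tested.

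Between STZ and control, 11 forms were called with a filter of 100 RPM, 98 with lane in the fit, 16 in lane 8 alone, 26 with offset forms summed, 74 without STZ 3 and control 5, and 22 to 74 over single omissions. The main fit takes its spread from all 3 groups, so the ob/ob libraries enter each limma p against control. A fit of only the 10 STZ and control libraries called 38 forms, with 35 of the 43 among them. Between STZ and ob/ob, 40 were called with no filter, 39 with a filter of 100 RPM, 7 in lane 7 alone, 5 in lane 8 alone, and 19 to 80 over single omissions. Replicate numbers did not pair the libraries: correlations of same-numbered deviations were -0.28, 0.27, 0.06, 0.38 and 0.13, and replicates 4 and 5 alone correlated best with their own number. With the replicate block 71 forms were called against control and 87 against ob/ob, and the exact p for the share of miR-122-5p was 0.562 and for offset forms 0.25. Lane by STZ interaction gave 0 calls with limma, 27 forms at an unadjusted p under 0.05 and a smallest adjusted p of 0.649.

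Depth is unknown, so values near the lowest listed value of a library, 1.33 to 7.29 RPM, cannot be told from 0 with stated precision. The sum to a fixed total means that a rise of abundant forms lowers others; rescaling moved the median log2 difference by 0.17.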
